A study of Sus scrofa with 6 samples.

Results

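The genes described here are 47 members of the WNT pathway in the pig embryo, chosen by name: 18 WNT ligands, 13 receptors and co-receptors, 6 secreted inhibitors, 3 R-spondins, 3 members of the axin and beta-catenin group and 4 nuclear factors. All 47 were found among the 28224 gene records of the Sscrofa11.1 annotation, and all 47 had enough counts to be tested. Open chromatin was measured by single-cell ATAC-seq, in which a transposase cuts accessible DNA in single nuclei, and not RNA. There were 6 libraries: E18-ZZ, E18-DZ, E21-ZZ and E21-DZ from somites at embryonic days 18 and 21, and E28-ZZ and E28-DZ from the myotome at embryonic day 28, where ZZ stands for Tibetan pigs and DZ for crosses of Duroc with Tibetan pigs. Each was a pool of 5 embryos, described in the study as from the same sow, with 1 library for each stage and breed. The stage comparison thus also set somite against myotome, and the tissue and the stage cannot be told apart. Differences between sows cannot be told apart from those of stage or breed either. The labels name no engineered allele and no treatment in any group.

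WNT ligands are secreted lipid-modified proteins that bind Frizzled receptors and, in the beta-catenin branch, the LRP5 or LRP6 co-receptor. The destruction complex, built on axin, is then inhibited, beta-catenin accumulates, and it acts with TCF and LEF proteins on DNA. In the embryo, WNTs from the dorsal neural tube and the surface ectoderm act on the somite, where they take part in patterning the dermomyotome and starting the myogenic programme, while secreted inhibitors and R-spondins restrain or enhance the signal.

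Between 89816504 and 133037579 counts in peaks were kept per library, from 58809 of 64439 barcodes. The number of called peaks went from 217138 in E18-ZZ and 199846 in E18-DZ to 131975 in E28-ZZ and 137769 in E28-DZ, and the length they covered from 191 and 168 Mb to 102 and 108 Mb. Counts were summed over all kept nuclei of a library, and in such sums fewer cells of a type and less open chromatin per cell cannot be told apart. Summed over 8 neural markers, the level, in counts scaled to the library total (CPM), was 429 and 470 at E18, 420 and 326 at E21, then 190 and 233 at E28, and all 8 fell between E18 and E28. The 8 epithelial markers summed to 324 to 335 CPM at E18, 168 to 200 at E21 and 161 to 164 at E28, with 6 of 8 lower, and the 9 fibroblast markers went from 369 to 390 CPM up to 531 to 577, with 6 of 9 higher and none lower. The 11 muscle markers, which check the labelled tissue, summed to 485 to 495 CPM at E18 and 378 to 482 at E28, with 1 higher, 2 lower and MYL1 at 0 in at least 1 library. Among other lists, endothelial markers were called higher in 2 and lower in 4 of 8, sclerotome markers lower in 1 of 7, and blood markers 1 in each direction of 4 tested, with GATA1 at 0 in at least 1 library. Of all windows tested, 20.6% were higher and 21.8% lower at E28 against E18. Called peaks covered 85448 and 73152 bp of the neural list at E18, then 33300 and 43577 bp at E28. For the epithelial list it was 74463 and 67560 bp, then 31173 and 32640 bp. Per covered base 3 of 8 neural markers were lower and 1 higher. Of epithelial markers 3 were lower and 2 higher, and of fibroblast markers 9 were higher. On that scale 66.3% of all windows were higher and 2.17% lower. The part of these markers in the WNT results was not tested. Any pair of libraries shared 113 to 157 barcode sequences, at most 1.66% of the smaller library.

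Each gene was first described by its window, the gene body with the 2 kb before its start. At E28 against E18, 26 of the 47 windows passed the test (edgeR quasi-likelihood test over 23286 windows, adjusted p under 0.05). Of these, 5 were higher at E28, against 20.6% of all windows tested, and 21 were lower, against 21.8%. Expressed as shares of the members, 10.6% were higher and 44.7% lower, and their median log2 change was -0.36 against -0.04 for all windows. The ligands held 11 of the 21 lower windows, with none of 18 higher and a median of -0.61. Among receptors 4 were higher and 3 lower, among inhibitors 3 of 6 lower, among R-spondins 2 of 3 lower, in the axin group 1 of 3 higher, and among nuclear factors 2 of 4 lower. The windows of WNT3, WNT3A, WNT7A and TCF7, lower, and LGR5, higher, passed whichever library was left out. Each such fit left 1 library in a stage, and the share of all windows that passed in it is not given.

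**Figure D1:**
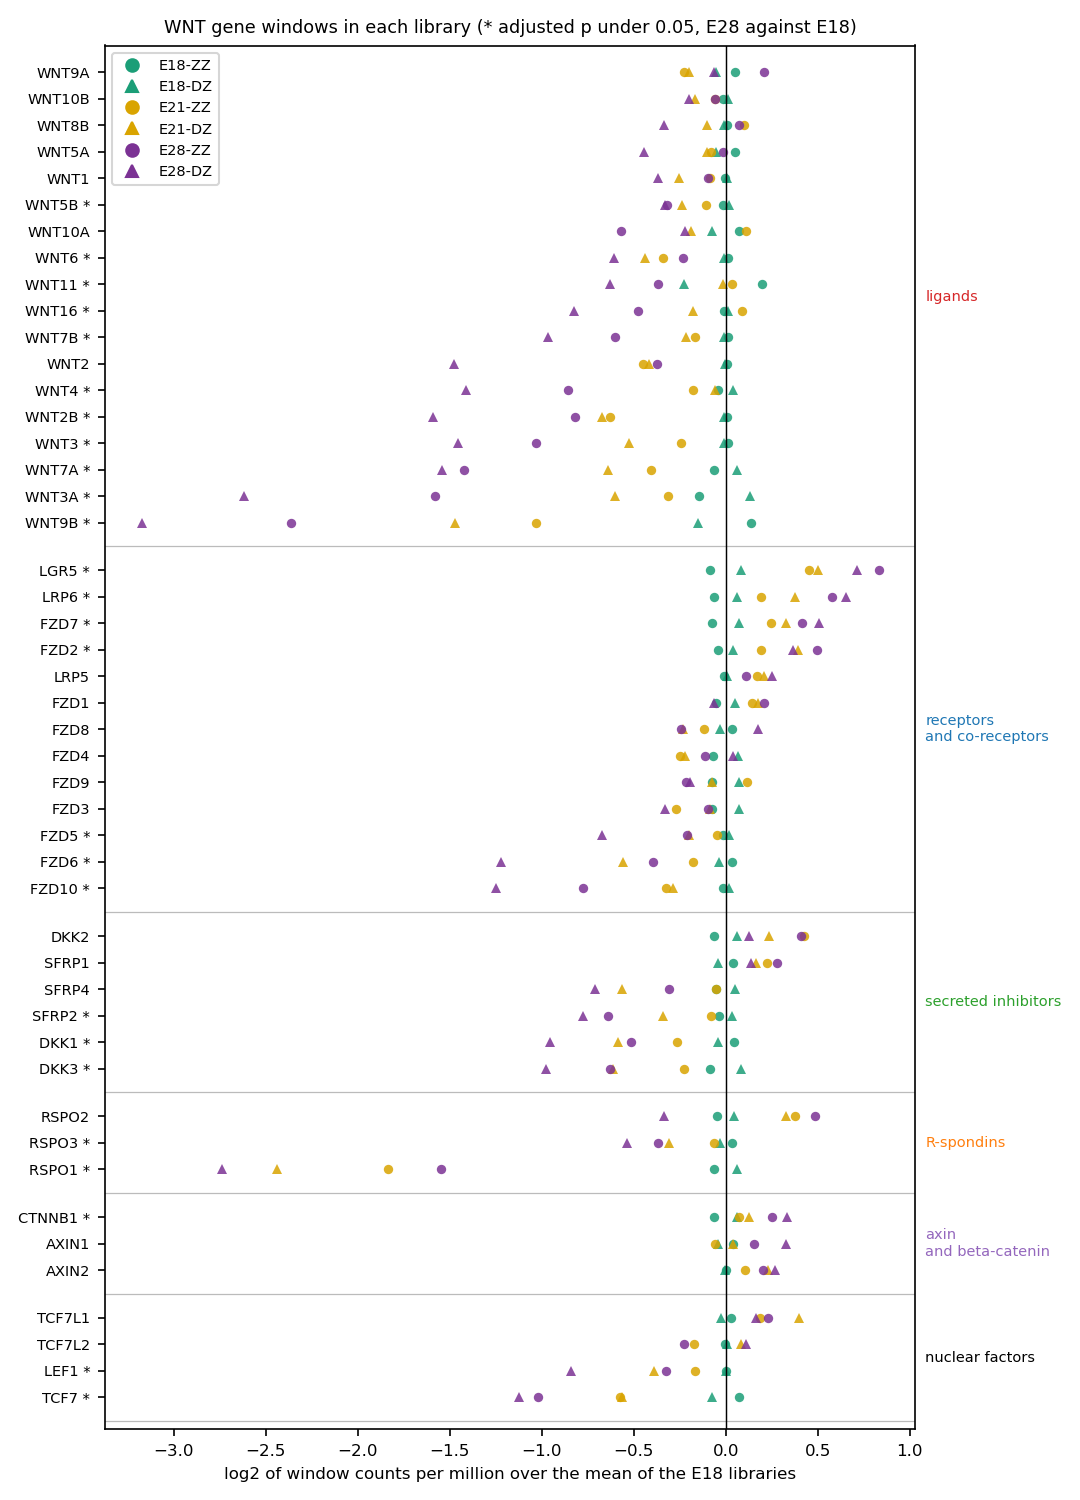
Level of each of the 47 gene windows in each library, as the log2 of its CPM over the mean of the E18 libraries (x axis); circles are ZZ and triangles DZ, each point is 1 library and there is no error bar. The E28 libraries of WNT9B, WNT3A and RSPO1 lie farthest to the left and those of LGR5 farthest to the right.

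Among the ligands, WNT9B (chr12:17709046-17733434), known for inducing kidney tubules, had the steepest decrease. Its window held 17.0 and 13.9 CPM in E18-ZZ and E18-DZ, 7.57 and 5.57 in E21-ZZ and E21-DZ, and 3.01 and 1.71 in E28-ZZ and E28-DZ, the order used for all values that follow, with no overlap between stages (log2 change -2.79, SE 0.27, adjusted p = 0.00465). The length of WNT9B covered by called peaks was 4859 and 3406 bp in the E18 libraries but 757 and 594 bp in the E28 libraries. Per covered base the change was -0.21, on a scale where the median of all windows was 0.54. WNT3A (chr2:51153978-51203678), a ligand of the tail bud and dorsal neural tube, had 40.3 and 48.8 CPM at E18, then 35.9 and 29.3, then 14.9 and 7.27. It fell by 2.12 on the log2 scale (SE 0.31, adjusted p = 0.00837), and it was also lower per covered base, at -0.58 (adjusted p = 0.0041). WNT7A (chr13:70538802-70602464), a ligand of the dorsal ectoderm and neural tube, went from 57.6 and 62.8 CPM over 45.4 and 38.7 to 22.4 and 20.6, a change of -1.52 (SE 0.12, adjusted p = 0.0038). WNT7A was covered over 13300 and 11263 bp in the E18 libraries but 3878 and 3849 bp in the E28 libraries, and its change per covered base was 0.12.

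WNT3, a ligand of early axis formation, held 46.3 and 45.5 CPM at E18, then 38.8 and 31.9, then 22.5 and 16.7 (log2 change -1.28, SE 0.12). For WNT2B the values were 34.3 and 34.0, then 22.1 and 21.4, then 19.3 and 11.4 CPM (-1.23, SE 0.20). WNT4, which acts in kidney and gonad, held 49.2 and 52.1 CPM at E18, then 44.8 and 48.6, then 28.0 and 19.01 (-1.16, SE 0.18). These 3 ligands were thus lower in both E28 libraries than in either E18 library, as were 9159 of all 23286 windows tested. Both E21 libraries also lay below both E18 libraries in each of these 3. Smaller decreases passed in WNT7B (64.7 and 63.7 CPM at E18, 57.1 and 55.4 at E21, 42.3 and 32.9 at E28, log2 change -0.82), WNT16 (31.4 and 31.9, 33.6 and 28.0, 22.8 and 17.9, -0.69) and WNT5B (160 and 164, 150 and 137, 130 and 129, -0.36). WNT11, made in the medial lip of the dermomyotome, held 88.3 and 65.7 CPM at E18, then 78.7 and 76.1, then 59.6 and 49.7 (-0.52, SE 0.12, adjusted p = 0.0213), and the call was lost without either E18 library. WNT6, an ectodermal ligand that keeps the dermomyotome epithelial, held 55.3 and 54.5 CPM at E18, then 43.4 and 40.6, then 46.8 and 36.1 (-0.45, SE 0.11, adjusted p = 0.0261), lost without any of 4 libraries. The WNT5B call was lost without E18-ZZ, E18-DZ or E28-ZZ. Per covered base WNT5B, WNT6, WNT7B and WNT11 were called higher, at 0.49, 0.45, 0.35 and 0.59, a scale on which the median of all windows was 0.54.

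The remaining 7 ligands did not pass. WNT1, the dorsal neural tube ligand, held 26.2 and 26.4 CPM at E18, then 24.8 and 22.1, then 24.6 and 20.4 (-0.27, SE 0.11, adjusted p = 0.0966). Both regions of the WNT1 window also lie in the window of WNT10B, annotated on the opposite strand, so they cannot be assigned to 1 of these genes. WNT10B holds further regions of its own, of which region 2, with a peak in every library, changed by 0.10 (adjusted p = 0.462). WNT2 held 32.3 and 32.1 CPM at E18 against 24.9 and 11.6 at E28 (-0.92, SE 0.29, adjusted p = 0.0559). WNT5A, WNT8B, WNT9A, WNT10A and WNT10B had log2 changes between -0.42 and 0.04.

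WNT genes lie in pairs on several chromosomes, and neighbours were compared within a library. WNT3A and WNT9A on chromosome 2, on opposite strands with 25631 bp between them, shared no region. The log2 ratio of WNT3A over WNT9A was -0.62 and -0.24 at E18, then -0.51 and -0.83, then -2.21 and -2.97, while WNT9A lay between 51.1 and 68.9 CPM in all 6 libraries. WNT3 and WNT9B on chromosome 12, 27848 bp apart, were both lower at E28, and the log2 ratio of WNT3 over WNT9B went from 1.45 and 1.71 at E18 to 2.90 and 3.29 at E28. WNT6 and WNT10A on chromosome 15, 7844 bp apart, had log2 ratios of 0.61 to 1.40 in all libraries, with E18 values inside the range of the E28 values. No test was made on these ratios.

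Of the 13 receptors 4 were higher at E28 and 3 lower, or 30.8% and 23.1% against 20.6% and 21.8% of all windows. Their median was -0.06 against -0.04, so this split is near the background. LGR5 (chr5:35463257-35595234), 1 of several R-spondin receptors and a marker of stem cells in some epithelia, held 69.9 and 78.6 CPM at E18, then 101.5 and 105, then 132 and 122. It rose by 0.74 on the log2 scale (SE 0.09, adjusted p = 0.00677), and it was 1 of 2 members whose covered length was not shorter at E28, at 14256 and 14593 bp in the E18 libraries and 15557 and 16852 bp in the E28 libraries. LRP6 (chr5:60149041-60318719), the co-receptor, was the other, with 63.4 and 69.1 CPM at E18, then 75.7 and 86.0, then 98.7 and 104 (0.58, SE 0.08, adjusted p = 0.00742). Per covered base the LRP6 call was lost, at 0.24 (adjusted p = 0.103, edgeR), while LGR5 kept its call, at 0.55. The median of all windows on that scale was 0.54. Its relative LRP5 held 131 to 132 CPM at E18 and 142 to 157 at E28 (0.15, SE 0.08, adjusted p = 0.207). FZD7, a Frizzled receptor of muscle progenitors among other cells, held 78.9 and 87.2 CPM at E18, then 98.5 and 104, then 111 and 118 (0.43, SE 0.08), and FZD2 held 61.6 and 65.0, then 72.3 and 83.0, then 89.2 and 81.6 (0.40, SE 0.10). Other Frizzled receptors were lower. FZD10, found in the dorsal neural tube, held 42.3 and 43.2 CPM at E18, then 34.1 and 35.1, then 25.0 and 18.0 (-1.04, SE 0.15, adjusted p = 0.00847). Peaks covered 6119 and 5498 bp of it in the E18 libraries but 2976 and 2962 bp in the E28 libraries. Per covered base the FZD10 call was lost, at -0.09 (adjusted p = 0.639, edgeR). FZD6, a planar polarity receptor, held 16.9 and 16.1, then 14.6 and 11.2, then 12.6 and 7.08 CPM (-0.84, SE 0.21), and FZD5 58.0 and 59.4, then 56.8 and 51.1, then 50.8 and 36.9 (-0.47, SE 0.12). The calls of FZD2, FZD5 and FZD6 each held in only 1 of the 6 fits that left out a library, and that of FZD7 was lost without either E18 library. FZD1, FZD3, FZD4, FZD8 and FZD9 had log2 changes between -0.24 and 0.04 and did not pass. FZD3, FZD4 and FZD9 each held 1 region called lower and none called higher. That of FZD9 lay over its start, at -0.57, and was not called per covered base, at 0.10.

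Of the secreted inhibitors, SFRP2, which binds WNTs, held 74.0 and 77.7 CPM at E18, then 71.8 and 60.0, then 48.7 and 44.3 (-0.75, SE 0.10, adjusted p = 0.00754). DKK1, which blocks the LRP co-receptors, held 29.3 and 27.6, then 23.6 and 18.9, then 19.9 and 14.7 CPM (-0.77, SE 0.12, adjusted p = 0.00951). DKK3, a divergent member of the family, held 73.0 and 82.0, then 66.2 and 50.8, then 50.2 and 39.4 CPM (-0.84, SE 0.15, adjusted p = 0.0123). Per covered base the windows of SFRP2, DKK1 and DKK3 lost their calls, at -0.18, -0.17 and -0.03, on a scale where the median of all windows was 0.54. The regions over the starts of SFRP2 (-0.65) and DKK3 (-0.96) were called lower and kept that call per covered base, at -0.34 and -0.68. That of DKK1 (-0.82) was called lower but lost its call, at -0.10. The windows of SFRP4, SFRP1 and DKK2 did not pass, with log2 changes of -0.55, 0.17 and 0.23. RSPO1 (chr6:93664839-93690328), whose protein raises the number of WNT receptors at the cell surface, went from 19.2 and 21.1 CPM in the E18 libraries over 5.64 and 3.71 to 6.90 and 3.02 (-2.18, SE 0.36, adjusted p = 0.0106). Its decrease lay between E18 and E21, with a change of -2.17 there (adjusted p = 0.0566) and values that overlapped between E21 and E28. Peaks covered 5846 and 6036 bp of RSPO1 in the E18 libraries but 1445 and 987 bp in the E28 libraries, and per covered base the change was 0.13. RSPO3 held 52.6 and 50.3, then 49.2 and 41.6, then 39.8 and 35.5 CPM (-0.49, SE 0.09, lost without either E18 library), and RSPO2 34.2 to 60.5 CPM with overlapping stages (0.06, SE 0.22).

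Downstream of the receptors, CTNNB1, which encodes beta-catenin, held 45 and 49.0 CPM at E18, then 49.4 and 51.3, then 56.0 and 59.3 (0.26, SE 0.08, adjusted p = 0.0464), a call that every omission of a library removed. The scaffold AXIN1 held 62.1 to 65.7 CPM at E18 and 71.1 to 80.2 at E28 (0.21, SE 0.10, adjusted p = 0.154). AXIN2 (chr12:12311293-12343207), the scaffold that is itself a target of the pathway, held 118 and 117 CPM at E18, then 126 and 137, then 135 and 141 (0.20, SE 0.08, adjusted p = 0.106). The nuclear factor TCF7 (chr2:136422740-136456323) held 97.9 and 88.5 CPM at E18, then 62.6 and 63.1, then 46.0 and 42.7 (-1.11, SE 0.08, adjusted p = 0.00376). LEF1 (chr8:113824511-113944078), its relative, held 103 and 103, then 91.7 and 78.5, then 82.4 and 57.6 CPM (-0.62, SE 0.13, adjusted p = 0.018). Per covered base TCF7 was at 0.22 and LEF1 at 0.23, neither called and both below the median of all windows, 0.54. TCF7L1 and TCF7L2 did not pass, at 0.16 and -0.09. The TCF7L2 window held 275 and 277 CPM at E18, then 245 and 292, then 236 and 298, with overlapping stages.

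The covered length moved with these counts. Peaks covered less of the window at E28 in 45 of the 47 members, and in 89.4% of all windows, with a median ratio of 0.656 over all windows. When the covered length of each library entered as an offset, so that counts per covered base were compared, 20 members were higher, against 66.3% of all windows, and 2 lower, against 2.17%. On that scale the median of all windows was 0.54 and that of the members 0.23. The 2 lower ligands were WNT3A and WNT16 (-0.51, adjusted p = 0.0074), and 1 of 18 ligands lay above the median of all windows. All 3 of the axin group lay above it, with AXIN1 at 1.67, AXIN2 at 0.87 and CTNNB1 at 0.55. The offset moved the median of all windows up by 0.59. Of the 26 called windows 12 changed sign on that scale, and the share over all called windows is not given. How far peak calling contributes to the window counts was not tested.

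**Figure D2:**
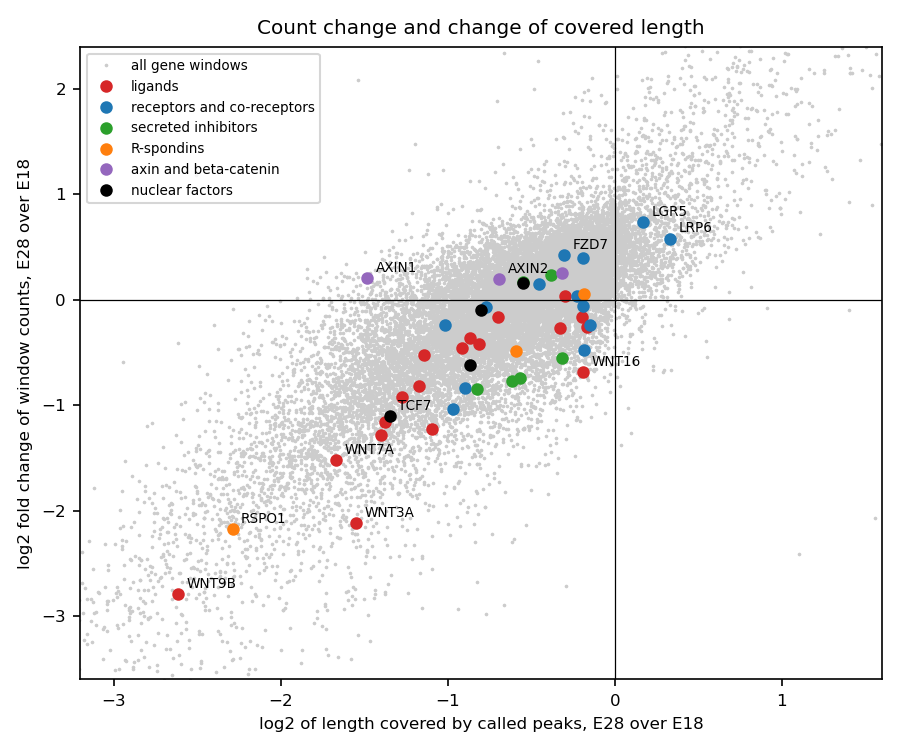
Log2 fold change of window counts at E28 over E18 (y axis) against the log2 ratio of the length covered by called peaks (x axis). Grey points are the gene windows with peaks at both stages, of which 741 fall beyond the axes, and coloured points are the 47 members by role. All 18 ligands lie to the left of 0, and LGR5 and LRP6 are the only members to the right of it.

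To compare the same stretch of DNA, peaks of the 6 libraries were merged into regions. The members held 464 regions, of which 154 had a called peak in all 6 libraries and were tested with all 78533 such regions. Of the members' regions 56, or 12.1%, were called in both E18 libraries alone, against 12.7% of all 294825 regions, a share near the background. In both E21 libraries alone 7 were called, or 1.51% against 2.21%, and in both E28 libraries alone 6, or 1.29% against 2.23%. At E28 against E18, 28 of the 154 were higher, against 19% of all regions, and 44 were lower, against 18.1%. All called regions were lower in 22 members, or 46.8% against 20.7% of the 20471 windows with a tested region. All were higher in 7, or 14.9% against 26.4%, both directions occurred in 7, or 14.9% against 11.6%, and 11 had none, or 23.4% against 41.3%. Without E18-DZ fewer than these 72 were called, in a fit left with 1 E18 library, and the share of all regions in that fit is not given. Per covered base 27 of the 28 higher regions kept their call, or 96.4% against 96.8% of all higher regions, and 17 of the 44 lower ones, or 38.6% against 32.0%, so that 44 of the 72 were left. The median of all regions on that scale was 0.43. Where covered lengths stayed within 1.5 times, 13 of 55 regions were higher, against 24.0%, and 8 were lower, against 4.98%. That split depended on scaling. When these regions were fitted alone, which moved the median of all such regions from 0.24 to 0.00, 6 members' regions were higher and 18 lower, against 18.0% and 17.0% of the 25935 regions in that fit.

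Regions were also sorted by position. Of 42 regions over the start of a member, 5 were higher and 18 lower, with a median of -0.34. Over the start of any gene the members held 44 regions, with 5 higher and 18 lower, or 11.4% and 40.9%. Of all 12855 such regions 25.0% were higher and 16.0% lower, with a median of 0.10. Of 87 in introns of a member 22 were higher and 18 lower, with a median of 0.07. In introns and over no exon or start of any gene the members held 83, with 21 higher and 18 lower, or 25.3% and 21.7%. Of all 28221 such regions 18.8% were higher and 17.1% lower. The difference between starts and introns was not tested. The starts of WNT9B (11.03 and 10.6 CPM at E18, 3.01 and 1.71 at E28, log2 change -2.30) and WNT3A (13.9 and 15.5, then 6.68 and 3.33, -1.67) fell most. RSPO1 followed, with 13.7 and 13.9 CPM at E18 and 6.90 and 3.02 at E28 (-1.62). Covered lengths of these starts differed 3.99 times in WNT9B and 3.57 times in RSPO1, and per covered base neither fall passed, at -0.51 and -0.12. The 5 starts that rose were those of AXIN1, AXIN2, CTNNB1, FZD2 and FZD7. FZD7 went from 78.9 and 87.2 CPM to 111 and 118 (0.42, adjusted p = 0.00895), with covered lengths that differed 1.26 times. Neither FZD7 nor FZD2 passed when the regions of near-constant covered length were fitted alone (adjusted p = 0.204 and 0.328, edgeR).

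**Figure D3:**
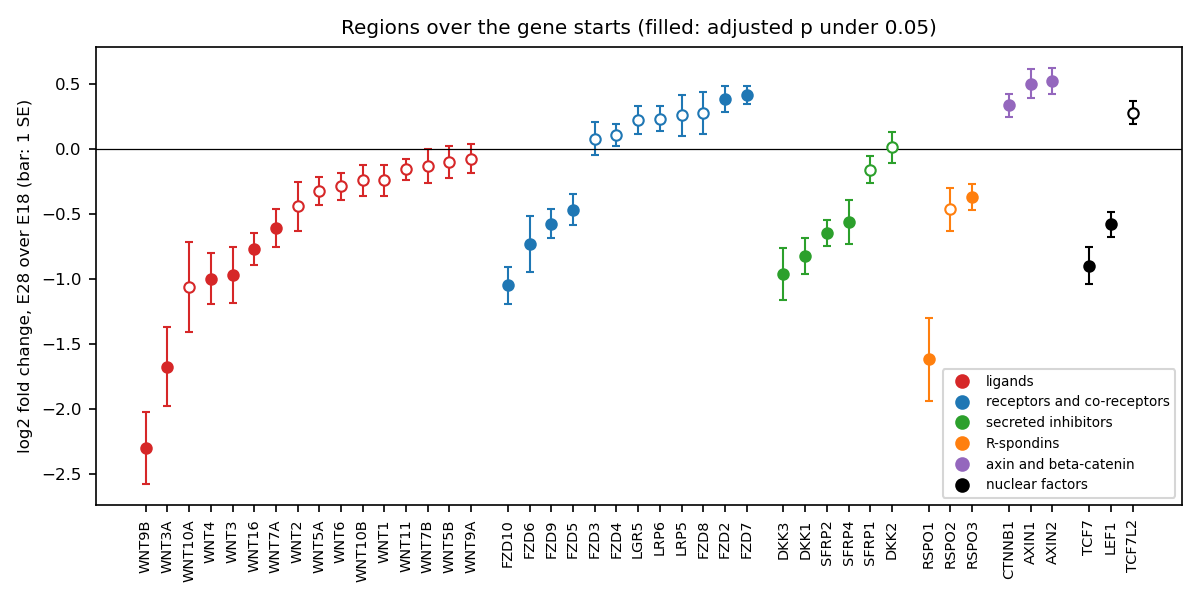
Log2 fold change at E28 over E18 of the region over each gene start, where it had a peak in all 6 libraries, with bars of 1 SE from the edgeR fit of 2 libraries per stage; filled points passed the test. WNT1 and WNT10B share a region and show the same point. All 3 points of the axin group lie above 0, and 16 ligand points lie below it.

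At the start of AXIN2 the region chr12:12334983-12346313 held 88.1 and 86.9 CPM at E18, then 104 and 123, then 126 and 135 (0.53, SE 0.10, adjusted p = 0.0124), with no overlap between E18 and E28, and the call was lost without E18-DZ. It reaches past the start into the neighbouring gene CEP112. AXIN1 (53.2 and 49.8 CPM at E18, 71.0 and 80.2 at E28, log2 change 0.50) and CTNNB1 (41.0 and 43.7, then 53.3 and 57.3, 0.34) rose at their starts as well, with calls lost when any 1 of 4 and of 5 libraries was left out. Fitted among regions of near-constant covered length alone, none of these 3 passed, with values of 0.28, 0.26 and 0.10, so that none of the 5 starts that rose kept its call in that fit. By contrast AXIN2 region 7, an exonic stretch 11282 bp into the gene, fell from 6.35 and 7.93 CPM to 0.84 and 1.12 (-2.91, SE 0.39). The start of LEF1 held 83.8 and 85.5 CPM at E18, then 71.2 and 62.8, then 66.1 and 51.7 (-0.58, SE 0.09, adjusted p = 0.00789), and that of TCF7 41.6 and 43.4, then 32.4 and 30.8, then 28.0 and 19.6 (-0.90, SE 0.14). Both calls were lost without E18-DZ. Per covered base the LEF1 start was at -0.13 (adjusted p = 0.347) and lost its call, over covered lengths that differed 1.51 times, while the TCF7 start kept it, at -0.39. The promoters of AXIN2 and LEF1 are shown because both genes are known targets of the TCF and LEF factors. They run from 250 bases before to 50 after the annotated start in the RefSeq sequence of Sscrofa11.1, at chr12:12343158-12343457 on the minus strand and chr8:113824261-113824560 on the plus strand, and capitals mark CTTTGAT or CTTTGAA, the core word of TCF and LEF sites, on either strand.
AXIN2 promoter: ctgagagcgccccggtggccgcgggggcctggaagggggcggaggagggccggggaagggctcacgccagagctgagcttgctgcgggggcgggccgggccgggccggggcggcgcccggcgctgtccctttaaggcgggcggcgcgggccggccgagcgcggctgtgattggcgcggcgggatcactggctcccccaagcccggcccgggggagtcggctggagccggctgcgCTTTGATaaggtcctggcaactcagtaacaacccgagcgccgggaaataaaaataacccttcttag
LEF1 promoter: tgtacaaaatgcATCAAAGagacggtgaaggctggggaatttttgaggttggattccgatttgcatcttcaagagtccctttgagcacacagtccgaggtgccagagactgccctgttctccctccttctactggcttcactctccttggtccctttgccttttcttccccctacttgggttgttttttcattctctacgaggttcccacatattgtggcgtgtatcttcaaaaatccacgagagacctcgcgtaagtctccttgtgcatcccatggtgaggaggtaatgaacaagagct
Each promoter held 1 such word, at base 235 in AXIN2 on the strand shown and at base 13 in LEF1 on the other strand. Of the 47 member promoters 5 held a word, those of AXIN2, DKK1, LEF1, TCF7 and WNT11, which is 10.6% against 7.03% of 28223 promoters of this length. In the central 300 bases of shared regions the share was 7.79% of the 154 members' regions against 9.97% of all 78533. A match is a description of the letters and not of binding.

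Of the 28 regions that rose, 22 were intronic, as were 87 of all 154 tested. Classed by the elements of any gene, 21 of the 28 were intronic, as were 83 of the 154 tested. Over all regions 5299 of the 14929 higher ones were intronic, as were 28221 of the 78533 tested. The members' regions were taken from gene windows while all regions include those between genes, so these shares are not like for like. DKK3 region 8 (chr2:47425809-47427011), in an intron 41166 bp from the start, held 2.10 and 1.88 CPM at E18, then 3.56 and 4.05, then 10.0 and 7.12. It rose by 2.05 (SE 0.30, adjusted p = 0.0059), with covered lengths within 1.32 times and a call that held without any library. The start of the same gene fell, with 30.1 and 30.8 CPM at E18, then 33.6 and 26.9, then 21.7 and 11.9 (-0.96, SE 0.20, adjusted p = 0.0155), a call lost without E18-DZ or E21-ZZ. SFRP1 region 4 (chr17:10453081-10455059), in an intron 35703 bp from the start, held 10.2 and 10.5 CPM at E18, then 15.5 and 11.3, then 25.4 and 21.8 (1.14, SE 0.17, adjusted p = 0.00668), and held without any library. Of 9 tested SFRP1 regions 4 were higher and 2 lower, against 19% and 18.1% of all regions, while its start region changed by -0.16 and did not pass. WNT5B region 21 (chr5:68698472-68699382), in an intron 71769 bp from the start, held 1.98 and 1.84 CPM at E18, then 2.63 and 2.15, then 5.53 and 6.10 (1.56, SE 0.30, adjusted p = 0.0125), a call lost without either E18 library. WNT5B region 19, 65748 bp from the start, rose too (3.84 and 3.40 CPM at E18, 9.09 and 7.19 at E28, log2 change 1.12, lost without either E18 library), and WNT5B region 11 fell from 24.1 and 27.6 CPM to 3.02 and 1.62 (-3.57) over covered lengths that differed 7.94 times. LRP5 region 22 (chr2:4638238-4639198), in an intron 15279 bp from the start, held 1.71 and 1.81 CPM at E18, then 4.39 and 5.37, then 5.03 and 4.25 (1.35, SE 0.30, adjusted p = 0.0177), so that its E21 and E28 values overlapped, and the call was lost without either E18 library.

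Among the regions of near-constant covered length, the start of WNT16 fell from 30.3 and 30.9 CPM to 20.3 and 17.1 (-0.77, SE 0.13), the start of FZD6 from 12.3 and 11.7 to 9.26 and 6.04 (-0.73, SE 0.21), and the start of RSPO3 (chr1:36063782-36068317) from 43.9 and 44.3 to 38.1 and 32.7 (-0.37, SE 0.10, adjusted p = 0.0338). The RSPO3 call was lost whichever library was left out, the FZD6 call when any 1 of 5 libraries was left out and the WNT16 call without E18-DZ. LGR5 region 16, an exonic stretch, rose from 19.9 and 21.6 CPM to 34.3 and 26.5 (0.50, SE 0.15), a call lost when any 1 of 5 libraries was left out and also when fitted alone. No region of a nuclear factor was called within this limit. The central 300 bases of the region with the largest called change within this limit in each role are shown on the plus strand of Sscrofa11.1, from RefSeq. They lie at chr5:68698744-68699043, chr2:4638588-4638887, chr2:47426330-47426629, chr1:36065778-36066077 and chr12:12340761-12341060, and none of the 5 holds either TCF and LEF word, so no letter is in capitals.
WNT5B region 21: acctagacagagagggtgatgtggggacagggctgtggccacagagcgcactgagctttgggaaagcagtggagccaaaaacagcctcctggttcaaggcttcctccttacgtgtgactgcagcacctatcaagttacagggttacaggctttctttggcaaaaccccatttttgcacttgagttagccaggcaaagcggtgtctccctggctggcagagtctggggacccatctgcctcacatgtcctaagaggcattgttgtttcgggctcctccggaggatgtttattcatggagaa
LRP5 region 22: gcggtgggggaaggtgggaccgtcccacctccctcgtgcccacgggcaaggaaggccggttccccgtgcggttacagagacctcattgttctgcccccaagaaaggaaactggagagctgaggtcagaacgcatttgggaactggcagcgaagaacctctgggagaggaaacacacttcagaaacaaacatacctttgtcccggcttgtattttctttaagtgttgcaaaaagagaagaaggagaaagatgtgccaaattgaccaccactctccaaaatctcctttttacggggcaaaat
DKK3 region 8: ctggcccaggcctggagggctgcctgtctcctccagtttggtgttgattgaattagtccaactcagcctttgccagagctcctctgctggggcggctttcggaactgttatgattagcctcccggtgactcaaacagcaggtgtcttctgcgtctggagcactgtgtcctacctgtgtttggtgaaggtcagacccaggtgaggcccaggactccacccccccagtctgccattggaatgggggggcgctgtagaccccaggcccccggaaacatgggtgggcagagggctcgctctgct
RSPO3 region 11: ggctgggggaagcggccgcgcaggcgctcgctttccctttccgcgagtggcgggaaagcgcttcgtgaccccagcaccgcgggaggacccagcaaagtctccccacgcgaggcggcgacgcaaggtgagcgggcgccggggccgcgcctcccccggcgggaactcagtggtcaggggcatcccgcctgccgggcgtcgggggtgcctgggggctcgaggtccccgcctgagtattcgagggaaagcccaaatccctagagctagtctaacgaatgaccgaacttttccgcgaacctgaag
AXIN2 region 8: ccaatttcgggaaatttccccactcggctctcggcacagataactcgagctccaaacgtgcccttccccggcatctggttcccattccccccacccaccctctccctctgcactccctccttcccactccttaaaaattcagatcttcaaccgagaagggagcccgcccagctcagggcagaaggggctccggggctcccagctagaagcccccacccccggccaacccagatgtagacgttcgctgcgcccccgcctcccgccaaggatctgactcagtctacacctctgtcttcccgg
The intronic sequences of WNT5B, LRP5 and DKK3 had 53.3%, 51.7% and 60.3% G and C, and those from the start regions of RSPO3 and AXIN2 69.3% and 62.0%. The AXIN2 stretch lies inside the gene and does not overlap the promoter printed above.

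**Figure D4:**
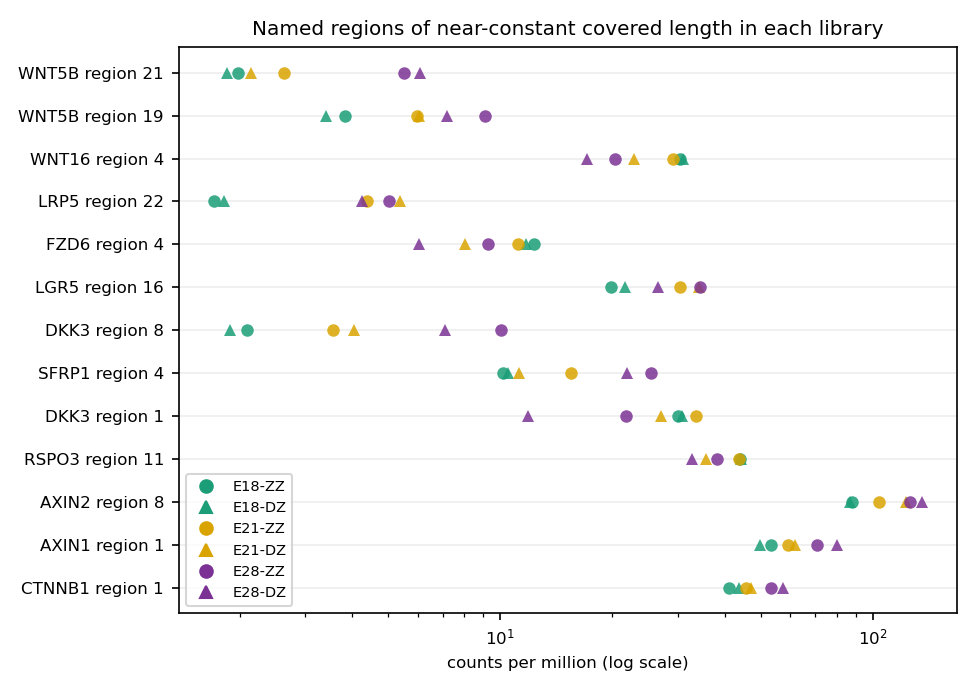
CPM (log axis) of the 13 named regions whose covered length stayed within 1.5 times, with 1 point per library, circles for ZZ and triangles for DZ. E28 lies to the right of E18 in the intronic regions of WNT5B, LRP5, DKK3 and SFRP1 and to the left at the starts of WNT16, FZD6, DKK3 and RSPO3.

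TCF7L2 (chr14:123343695-123547332) had the largest number of tested regions, 21, of which 5 were higher and 5 lower, or 23.8% in each direction against 19% and 18.1% of all regions, which is near the background. Its whole window did not pass. TCF7L2 region 36, 116541 bp from the start, fell from 13.6 and 12.7 CPM at E18 over 5.23 and 5.69 at E21 to 0.98 and 0.15 at E28 (-4.79, SE 0.71), and region 14, 44352 bp from the start, from 14.0 and 11.6 over 4.70 and 3.0 to 1.07 and 1.06 (-3.61, SE 0.30). TCF7L2 region 54, 179304 bp from the start, rose from 2.99 and 2.41 CPM over 5.67 and 10.6 to 13.6 and 14.3 (2.31, SE 0.36), and region 25, 76280 bp from the start, from 3.22 and 1.52 over 12.2 and 19.5 to 15.9 and 17.9 (2.79, SE 0.46). These 4 calls held whichever library was left out, and all 10 regions were intronic with covered lengths that differed by more than 1.5 times. Per covered base 6 of the 10 kept their call in the same direction. The start region of TCF7L2 changed by 0.28 (adjusted p = 0.0534, edgeR).

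Intronic regions of the co-receptors LRP6 and LRP5, of LGR5 and of the inhibitor DKK2 rose as well, although the windows of LRP5 and DKK2 did not pass. Of 10 tested LRP5 regions 2 were higher and 1, also intronic, lower, against 19% and 18.1% of all regions. Regions were higher in 3 of 6 tested in LRP6, 3 of 7 in LGR5 and 1 of 4 in DKK2, with 0 lower in each. LRP6 region 14, 103672 bp from the start, went from 1.05 and 1.84 CPM at E18 over 1.06 and 2.03 at E21 to 5.65 and 9.22 at E28 (2.34, SE 0.30). LGR5 region 12, 37164 bp from the start, went from 1.007 and 0.83 over 1.41 and 2.30 to 6.20 and 9.50 CPM (2.99, SE 0.40). LRP5 region 17, 24326 bp from the start, went from 2.49 and 2.85 over 9.29 and 13.1 to 17.3 and 31.4 CPM (3.08, SE 0.25), and among inhibitors DKK2 region 13, 81466 bp from the start, from 1.18 and 1.72 over 6.12 and 5.31 to 9.75 and 12.1 (2.88, SE 0.29). In each of these 4 regions the change per covered base was also positive, between 1.19 and 2.35, and both E28 peaks were longer than both E18 peaks except in LRP6 region 14, where E28-ZZ had 609 bp and E18-DZ 659 bp. LRP6 region 13 was covered over 71 and 1 bp in the E18 libraries and over 680 and 933 bp in those of E28, with 0 counts in E18-DZ, so its fitted fold is not given as a result.

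**Figure D5:**
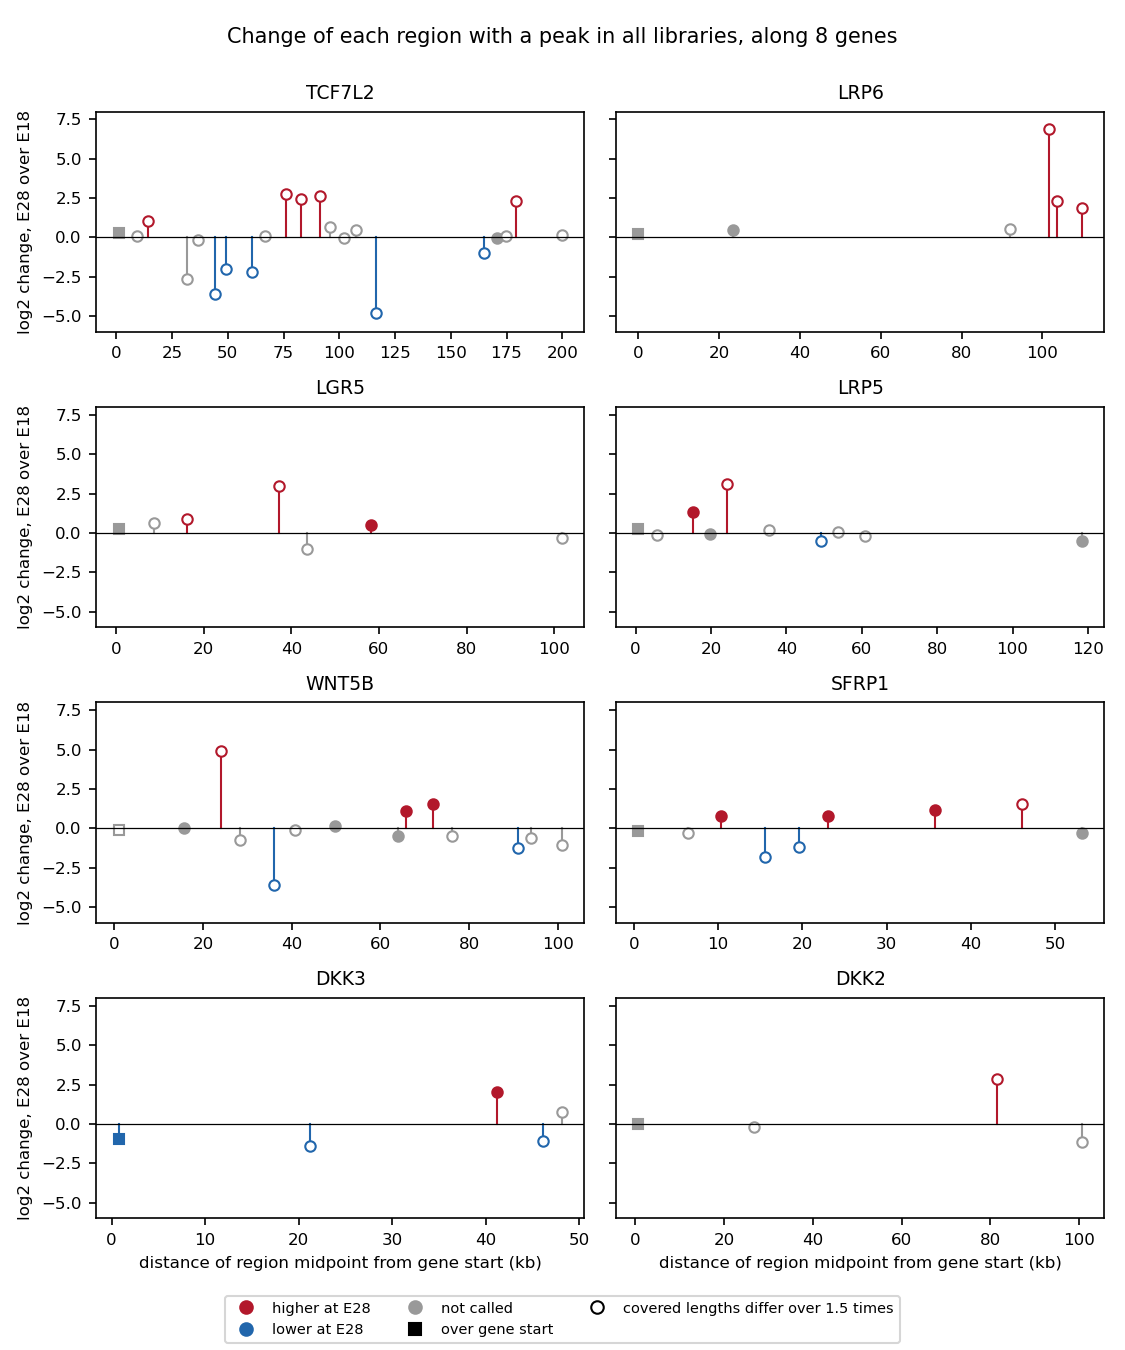
Log2 fold change at E28 over E18 of every region with a peak in all 6 libraries (y axis) by the distance of its midpoint from the gene start in kb (x axis), for 8 genes; squares cover the start, red and blue passed the test and open symbols had covered lengths that differed by over 1.5 times. TCF7L2 and SFRP1 show red and blue regions side by side, and the red LRP6 regions lie beyond 100 kb, the tallest being the fitted value of a region with 0 counts in E18-DZ.

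By stage, E21 was compared with the stages on either side. Between E18 and E21 no member window was higher, against 0.803% of all windows, and 1 was lower, against 1.13%, namely TCF7 (-0.57, adjusted p = 0.0498), a call lost without any of the E18 and E21 libraries. In regions 4 were higher at E21, against 4.8%, and 6 lower, against 1.78%. The higher ones were LRP5 region 17 (1.97), DKK2 region 13 (1.94), SFRP1 region 12 (0.81) and TCF7L2 region 25 (2.68), and the lower ones lay in WNT5B, WNT7A, WNT11, AXIN2 and TCF7L2 and at the start of RSPO1 (-1.78). Between E21 and E28 no member window was higher, against 0.94%, and 8 were lower, against 4.77%: WNT3 (-0.89), WNT3A (-1.64), WNT4 (-1.04), WNT7A (-1.0), WNT7B (-0.62), WNT9B (-1.54), WNT16 (-0.64) and TCF7 (-0.54). Their adjusted p-values in edgeR ran from 0.0269 in WNT7A to 0.04997 in WNT16, near the threshold. In promoters alone 1 member was lower, or 2.22% against 1.92%, and in shared regions alone 3, or 6.38% against 3.71%. In regions 4 were higher at E28 than at E21, against 2.53%, and 9 lower, against 4.61%, with LRP6 region 14 the steepest increase (2.32) and TCF7L2 region 36 the steepest decrease (-3.49). The comparisons share libraries and are therefore not independent.

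Between breeds no member passed. Of the 47 windows 0 were called in DZ against ZZ, against 0.00429% of all windows, with 2 at an unadjusted p under 0.05 in edgeR, or 4.26% against 5.1% of all windows. DESeq2 called 0 of the members and 529 of all windows, with 11 members at an unadjusted p under 0.05, or 23.4% against 14.1%. Of the 154 regions 0 were called, against 0.0% of all regions, with 12 at an unadjusted p under 0.05 in edgeR, or 7.79% against 4.94%. DESeq2 called 0 of them and 159 of all regions, with 14 members' regions at an unadjusted p under 0.05, or 9.09% against 6.51%. Window differences ran from -0.52 in RSPO1 to 0.23 in TCF7L2, with 33 below 0 and a median of -0.09 against 0.00 for all windows. The windows with an unadjusted p under 0.05 were those of TCF7L2 (0.23, unadjusted p = 0.0461, adjusted p = 0.825) and DKK1 (-0.25, unadjusted p = 0.0463, adjusted p = 0.825) in edgeR's test. With 1 library per stage and breed the test had 2 residual degrees of freedom, and all p-values measure the spread between these libraries alone.

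Another 53 genes of the pathway were listed, of which 47 were tested. At E28 against E18, 8 were higher, or 17.0% against 20.6% of all windows, and 21 lower, or 44.7% against 21.8%, with a median of -0.30 against -0.04. The lower ones included the posterior targets CDX1 (33.4 and 31.1 CPM at E18, 6.25 and 4.82 at E28, log2 change -2.59), SP5 (60.8 and 63.0, then 29.6 and 24.7, -1.24) and the WNT-inactivating enzyme NOTUM (66.0 and 59.8, then 33.8 and 28.7, -1.05). Per covered base CDX1 and NOTUM lost their calls, at -0.26 (adjusted p = 0.25) and -0.29 (adjusted p = 0.0757), and SP5 kept it, at -0.88. RNF43 (-1.01) and ZNRF3 (-0.60), which remove receptors from the membrane, were lower as well. Per covered base both were called higher, at 0.36 and 0.42, but lay below the median of all windows, 0.54. Of the other R-spondin receptors, LGR6 was lower (114 and 83.2 CPM at E18, 36.1 and 22.2 at E28, log2 change -1.81, adjusted p = 0.00339), and LGR4 did not pass (-0.32, adjusted p = 0.057), while per covered base both were called higher, at 1.02 and 0.53. Of the 29 called genes of this list 12 changed sign on that scale, and the share over all called windows is not given. The higher ones included the kinases GSK3B (121 and 126 CPM at E18, 187 and 179 at E28, log2 change 0.53) and GSK3A (0.43), the receptor ROR1 (0.37), the target MYC (0.38) and WIF1, a secreted inhibitor, at 24.7 and 28.8 CPM at E18 and 46.9 and 61.5 at E28 (0.98). Per covered base GSK3B, GSK3A, ROR1, MYC and WIF1 were called higher, at 0.81, 0.91, 0.82, 0.46 and 0.61. MYC thus lay below the median of all windows, 0.54. On that scale the median of the 47 tested genes of this list was 0.55, close to that of all windows.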

How the data were processed

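Nuclei of 6 libraries were profiled by 10x single-cell ATAC-seq. The authors called peaks in each library separately with Cell Ranger ATAC 1.2.0 on Sscrofa11.1 and deposited raw counts per peak and barcode, of which 90.1 to 92.4% were even numbers. A peak not called in a library has no count there. Seurat 3.1.1 and Signac 0.2.2 are named in the sources for later steps. Here barcodes with 2000 to 30000 counts were kept (91.3%), doublets were limited by that upper bound alone, and counts were summed per library; no cell types were assigned. A gene window takes every peak overlapping the gene body or the 2 kb upstream, in NCBI annotation release 106. Regions merge peaks overlapping by at least 1 bp, and those with a peak in all 6 libraries were tested. CPM divides by all kept counts of a library. Stage and breed were fitted as additive terms by edgeR 4.0.16 (TMM, filterByExpr, quasi-likelihood, Benjamini-Hochberg, R 4.3.3), checked on simulated data, with DESeq2 1.42.0 as an alternative. Member windows held 169 to 36525 counts. Covered length is the length under called peaks.

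Named were every member whose window passed at E28 against E18; WNT1, WNT3A, WNT6, WNT7A, WNT11, AXIN2 and LEF1; and in each role up to 3 called regions with covered lengths within 1.5 times. Every other region was picked for naming with its values in view. The members and lists were chosen with earlier results of these data known. Of 53 other pathway genes 49 were matched by symbol. Alternatives are given in the closing section. A further marker list is not reported here.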

Additional observations from a re-analysis of the deposited data

Results flagged for a closer look

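In 4 members the E18 to E28 change of the window had opposite signs in the breeds, each beyond the 95% interval of its Poisson counting error, whose SE was 0.0115 to 0.0315 on the log2 scale in these 4. WNT8B (0.06 in ZZ, -0.33 in DZ) and WNT9A (0.16 in ZZ, -0.01 in DZ) had opposite signs as well, but the smaller change of each lay within that interval. This error says nothing of the spread between embryos or libraries, since each stage and breed had 1 library, and it is too small because most counts were even numbers and thus not independent molecules. The difference between breeds was not tested, and the share of all windows with such opposite signs is not given. The log2 ratio of CPM at E28 over E18 in the window of RSPO2, an R-spondin, was 0.53 in ZZ and -0.38 in DZ. For the Frizzled receptors it was 0.26 in ZZ and -0.12 in DZ at FZD1, and -0.28 in ZZ and 0.21 in DZ at FZD8. TCF7L2 had -0.22 in ZZ and 0.10 in DZ.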

How the results depend on the processing

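Numbers of member windows called at E28 against E18 (26) and of regions (72) stayed within 1.5 times under another normalization, no filter, DESeq2, other barcode limits and the fit without breed, and breed calls were 0 in all. Leaving out 1 library gave 5 to 26 windows and 23 to 76 regions at E28 against E18, 0 to 8 and 0 to 41 at E21 against E18 (1 and 10 with all libraries), and 0 to 13 and 0 to 37 at E28 against E21 (8 and 13). Each of these fits left 1 library in a stage, and no share over all features is given for them. For windows at E21 against E18 the count was 0 with no filter on low counts, with barcodes of 4000 to 60000 counts and with promoters alone, and 20 by DESeq2. Shared regions alone gave 2 lower, or 4.26% against 2.31% of all windows, and per covered base 4 were higher, or 8.51% against 19.3%. For windows at E28 against E21 it was 23 by DESeq2 and 13 per covered base. Of these 13, 11 were higher, or 23.4% against 42.4%, and 2 lower, or 4.26% against 0.676%. Promoters gave 1 lower, or 2.22% against 1.92%, and shared regions 3 lower, or 6.38% against 3.71%. No share over all features is given for the DESeq2 counts. For regions, DESeq2 called 32 at E21 against E18 and 38 at E28 against E21, and the covered-length offset 29 and 47. Regions within 1.5 times fitted alone gave 4 and 8, and 24 at E28 against E18. That last fit tested fewer regions, and the cause of the other shifts was not tested. Directions and shares over all regions are not given for the counts at E21 against E18 and at E28 against E21. At E28 against E18 the offset called 45.8% of all regions higher and 6.39% lower, against 39.0% and 12.3% of the members' regions. Of the 24 regions fitted alone 6 were higher and 18 lower, against 18.0% and 17.0% of all regions in that fit.

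The covered-length offset moved the median of all windows up by 0.59, and the share of all windows that changed sign is not given. Per covered base 21 of the 47 windows changed sign at E28 against E18, 12 of them among the 26 called. Of the windows named by rule these were WNT1 (0.0388), WNT3 (0.12), WNT4 (0.19), WNT5B (0.49), WNT6 (0.45), WNT7A (0.12), WNT7B (0.35), WNT11 (0.59), FZD6 (0.0335), RSPO1 (0.13), RSPO3 (0.0744), LEF1 (0.23) and TCF7 (0.22), on a scale where the median of all windows was 0.54. The additive fit compared stages within breed and breeds within stage, and the fit without the other factor dropped that pairing. Beyond it, no paired analysis was possible because the labels number no replicates.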
